A study of Mus musculus with 2 samples.

Results

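Axon guidance receptors and ligands were examined in tdTomato+ cells of HIRA WT and HIRA KO E15.5 mouse skin. They belong to the Eph, ephrin, semaphorin, plexin, neuropilin, Robo and Slit families. The genes were chosen by symbol: every *Eph*, *Efn*, *Sema* and *Plxn* gene in the deposited count tables together with *Nrp1*, *Nrp2*, *Robo1*, *Robo2* and *Slit1* to *Slit3*. This gave 58 of 28000 genes, and 57 of them had at least 1 UMI (unique molecular identifier, the count of a captured transcript). In the WT library 55 had a UMI, and in the KO library 56, while *Slit1* was at 0 in both. Of the 57, 30 had at least 100 UMIs over both libraries, 21 had 10 to 99, and 6 had 1 to 9 (*Epha6*, *Ephb1*, *Epha8*, *Epha10*, *Sema7a* and *Sema4f*).

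These families guide growing axons and also act in other migrating cells. Ephrins are membrane-bound ligands of Eph receptor tyrosine kinases and can signal into both cells at a contact. Semaphorins are secreted or membrane-bound ligands of plexins, and most class 3 semaphorins bind plexins through the co-receptors NRP1 and NRP2. Slits are secreted ligands of Robo receptors. In the embryo, neural crest cells, which give rise to melanoblasts and to the glia of skin nerves, meet many of these ligands on the way to their targets.

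The data were 1 HIRA WT and 1 HIRA KO library of single-cell RNA-seq, from trunk skin of mice of a mixed background close to C57BL/6J. By the study's methods, WT cells came from a *TyrCreB* *Hira* wt/wt embryo and KO cells from a *TyrCreB* *Hira* fl/fl embryo, both with a *Rosa26* lox-stop-lox tdTomato reporter, and live tdTomato+ cells were sorted with tdTomato-negative skin as the gating control. The tdTomato label is not specific to melanoblasts, since by the study's account the Cre also acts outside the pigment lineage. There were 1546 WT barcodes with 7073939 UMIs (median 3961) and 846 KO barcodes with 5049514 UMIs (median 5152.5). The libraries shared 0 barcodes. The chosen genes took 4886 of the WT UMIs and 4114 of the KO UMIs. With 1 library per genotype there was no replicate, so no difference between WT and KO could be tested, and every interval below is a 95% interval of counting error only.

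After filtering, 1540 WT and 828 KO cells were clustered without the guidance genes, so that their levels did not form the clusters. All 20 clusters were named from markers and all held cells of both libraries. The largest classes were melanoblast-like (534 WT and 139 KO cells), glial-like (448 and 254) and mesenchymal-like (229 and 268). The melanoblast markers summed to 5861 CPM (counts per 1e6 UMIs of the class) for WT and 5636 CPM for KO melanoblast-like cells, with *Dct* the most abundant. *Tyrp1* and *Oca2* were at 0 in the KO cells, where 3 counts would be 3.53 CPM. The glial markers, led by *Fabp7*, summed to 4661 and 4289 CPM in glial-like cells, and the mesenchymal markers, led by *Col1a2*, to 20707 and 22784 CPM in mesenchymal-like cells. The other classes were macrophage-like (96 and 19), monocyte- or dendritic-like (50 and 17), mast-cell-like (92 and 3), neutrophil-like (7 and 7), keratinocyte-like (12 and 81), erythroid-like (5 and 19), endothelial-like (21 and 8), pericyte-like (3 and 5) and adipocyte-like (43 and 8).

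*Hira*, the deleted gene, was read as a check of the labels. Over all cells it was at 11.6 CPM (9.24 to 14.4) for WT and 10.0 CPM (7.43 to 13.2) for KO. Melanoblast-like cells held 35 WT and 3 KO UMIs of *Hira*, or 13.8 CPM (9.63 to 19.2) and 3.53 CPM (0.728 to 10.3). Glial-like cells had 11.0 and 7.53 CPM, from 18 and 9 UMIs, and mesenchymal-like cells 8.05 and 10.4 CPM, from 9 and 16, with intervals that overlapped between the genotypes. These 3′ UMIs need not come from the floxed exon, so a transcript that lost it could still be counted. *Xist* had 16822 UMIs for WT and 23 for KO cells, and *Eif2s3y*, on the Y chromosome, had 0 and 220. The WT cells thus had the transcripts of a female and the KO cells those of a male, and genotype and sex cannot be told apart in what follows.

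Summed over all 58 genes, guidance transcripts were most abundant in glial-like and mesenchymal-like cells among the 3 largest classes and least abundant in melanoblast-like cells. Glial-like cells had 1308 CPM (1253 to 1364) for WT and 1091 CPM (1032 to 1152) for KO. Mesenchymal-like cells had 984 CPM (926 to 1043) and 1019 CPM (969 to 1070.3). Melanoblast-like cells had 365 CPM (342 to 389) and 427 CPM (384 to 473), below the other 2 classes in both libraries. Since 3′ UMIs count transcripts at 1 end, the levels are not scaled to gene length.

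Some guidance genes differed between the 3 main classes. A gene was called highest in a class when its level was at least 2-fold that of each of the other 2 main classes in both libraries, with at least 30 UMIs over the 3 classes in each library. Of 31 guidance genes with enough UMIs, 1 was highest in melanoblast-like cells (3.23%, against 1.64% of the 7949 genes tested in all). In glial-like cells 7 were highest (22.6%, against 4.69%), namely *Epha5*, *Epha7*, *Plxna2*, *Plxna4*, *Plxnb3*, *Sema3b* and *Sema3g*. In mesenchymal-like cells 5 were highest (16.1%, against 4.68%), namely *Efnb2*, *Robo1*, *Robo2*, *Sema5a* and *Slit2*. The other 18 were under this limit in at least 1 library. These shares are descriptions with no test, and the melanoblast-like share rests on 1 gene.

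**Figure D1:**
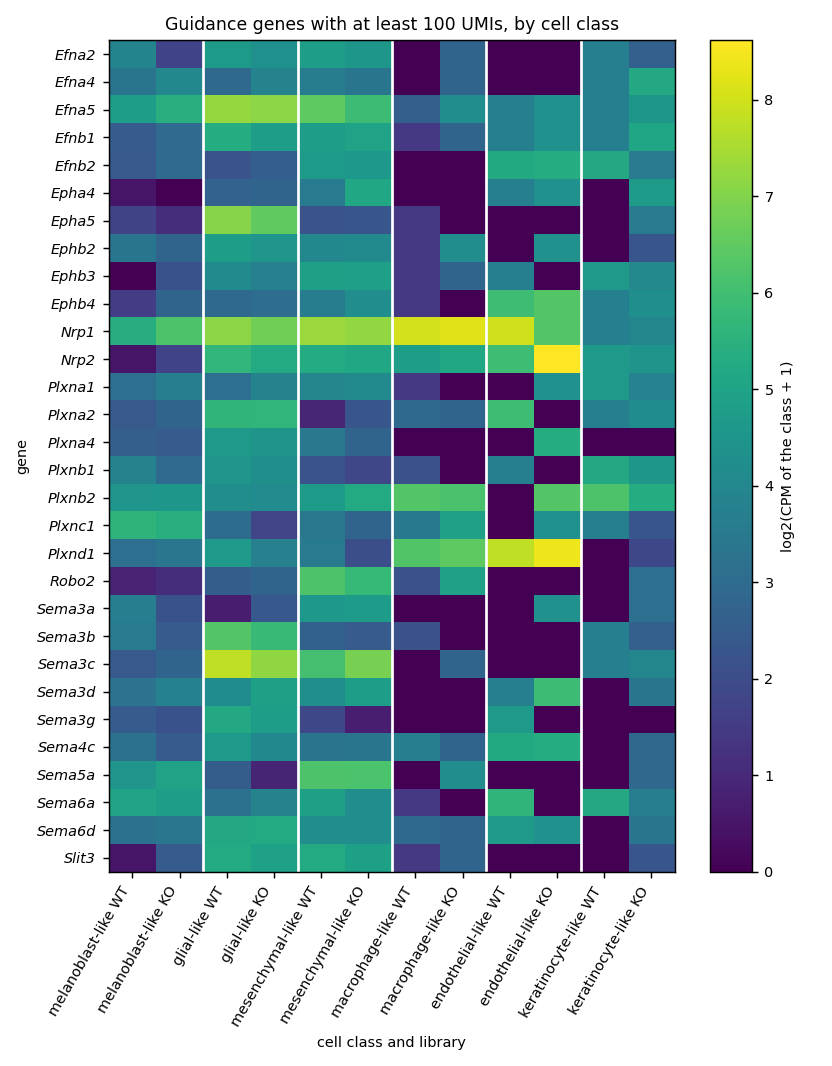
Heat map of the 30 guidance genes with at least 100 UMIs, each on a line, in 6 cell classes and both libraries, coloured by log2 of the CPM of the class plus 1. Each column is 1 class in 1 library, *Epha5* is bright in the glial-like columns, *Plxnc1* in the melanoblast-like columns and *Robo2* in the mesenchymal-like columns, and the endothelial-like and WT keratinocyte-like columns rest on few cells.

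Among the ephrin ligands, *Efna5* (ENSMUSG00000048915, chr17:62604184-62881317, minus strand, GRCm38) was found in all 3 classes. It reached 150.2 CPM (132 to 170.2) for WT and 136 CPM (116 to 159) for KO glial-like cells. Mesenchymal-like cells had 88.6 CPM (72.0 to 108) and 59.7 CPM (48.1 to 73.2), and melanoblast-like cells 26.5 CPM (20.5 to 33.6) and 41.2 CPM (28.7 to 57.3). The order glial, mesenchymal, melanoblast was the same in both libraries. Ephrin-A5 is a lipid-anchored ligand of the EphA receptors. *Efna5* gave 82.3% of the ephrin-A UMIs of WT and 79.9% of those of KO glial-like cells. *Efna2* was at 25.0 CPM for WT and 19.3 CPM for KO glial-like cells, and at 27.7 CPM for WT and 22.7 CPM for KO mesenchymal-like cells. In melanoblast-like cells *Efna2* had 13.8 CPM (9.63 to 19.2) for WT and 2.35 CPM (0.285 to 8.50) for KO. *Efna4* stayed between 6.72 and 15.3 CPM over the 3 classes and both libraries.

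The transmembrane ephrins had other patterns. *Efnb1*, a ligand of EphB receptors encoded on the X chromosome, was at 39.7 CPM for WT and 27.6 CPM for KO glial-like cells, and at 26.8 CPM for WT and 30.5 CPM for KO mesenchymal-like cells. It was lower in melanoblast-like cells, at 4.74 and 7.06 CPM. *Efnb2* was highest in mesenchymal-like cells, at 25.1 CPM (16.7 to 36.2) for WT and 23.4 CPM (16.4 to 32.3) for KO. Its level there was 5.76-fold (2.78 to 12.8) that of melanoblast-like cells for WT and 3.31-fold (1.38 to 9.61) for KO. The genes *Efna1*, *Efna3* and *Efna4* lie near each other on chromosome 3, between positions 89271733 and 89338028, and only *Efna4* of them had at least 100 UMIs.

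Of the Eph receptors, *Epha5* (ENSMUSG00000029245, chr5:84054761-84417382, minus strand) had the largest fold between classes in WT. Glial-like cells held 218 WT and 107 KO UMIs, or 133 CPM (116 to 152) and 89.6 CPM (73.4 to 108). Mesenchymal-like cells had 3.58 and 3.89 CPM and melanoblast-like cells 2.37 and 1.18 CPM. The glial level was 37.2-fold (14.3 to 138) that of mesenchymal-like cells, the next of the 3 main classes, for WT and 23.0-fold (10.2 to 64.1) for KO. *Epha5* was found in 20.5% of the WT and 17.7% of the KO glial-like cells, against 1.04% of the WT and 0% of the KO macrophage-like cells, which had median depths of 5571.5 and 8128 UMIs against 3378.5 and 4208. In KO keratinocyte-like cells, deeper still with a median of 9113 UMIs, *Epha5* had 8 UMIs in 2.47% of 81 cells, or 10.5 CPM. After thinning to 2000 UMIs per cell the glial shares were 13.9% and 9.35%.

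*Epha7*, another EphA receptor with fewer UMIs, was at 20.8 CPM for WT and 25.1 CPM for KO glial-like cells, against at most 7.06 CPM in the other 2 classes. *Epha4*, which can bind both ephrin-A and ephrin-B ligands, was most abundant in mesenchymal-like cells in both libraries, at 10.7 CPM (5.55 to 18.8) for WT and 33.7 CPM (25.2 to 44.2) for KO. In melanoblast-like cells it had 1 UMI for WT and 0 for KO, where 3 counts would be 3.53 CPM. *Epha3* shared this mesenchymal pattern, with 20.6 and 35.7 CPM in mesenchymal-like cells and 1 UMI in the glial-like cells of each library. *Epha7* and *Epha3* had under 100 UMIs and were singled out after their values were seen.

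Of the EphB receptors, *Ephb2* was at 26.9 CPM for WT and 21.8 CPM for KO glial-like cells, at 15.2 CPM for WT and 16.2 CPM for KO mesenchymal-like cells, and at 9.09 CPM for WT and 5.88 CPM for KO melanoblast-like cells. *Ephb3* was at 28.6 CPM for WT and 27.9 CPM for KO mesenchymal-like cells and at 16.5 CPM for WT and 12.6 CPM for KO glial-like cells. Melanoblast-like cells had 0 UMIs of *Ephb3* for WT and 3 for KO. *Ephb4*, the receptor of ephrin-B2 in venous endothelium, was at 11.6 CPM for WT and 17.5 CPM for KO mesenchymal-like cells and at most 7.53 CPM in the other 2 classes.

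Class 3 semaphorins, the secreted ligands of neuropilins and plexins, made up the largest group of ligand transcripts in glial-like cells, with 356 CPM for WT and 272 CPM for KO. *Sema3c* (ENSMUSG00000028780, chr5:17574281-17730268, plus strand) led them. It was found in 49.6% of the WT and 46.9% of the KO glial-like cells, at 219 CPM (197 to 242) and 146 CPM (125 to 169). Mesenchymal-like cells had 67.1 CPM (52.8 to 84.1) and 114 CPM (97.9 to 132), so the classes stood 3.26-fold apart for WT and 1.28-fold apart for KO. Melanoblast-like cells had 4.35 and 5.88 CPM, and the share of them with a UMI was 2.06% and 3.60%.

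*Sema3b* and *Sema3g* were highest in glial-like cells. *Sema3b* was at 77.5 CPM for WT and 56.9 CPM for KO glial-like cells, which was 7.01-fold (4.63 to 11.0) the melanoblast level for WT and 12.1-fold (4.51 to 45.7) for KO. *Sema3g* was at 36.0 CPM for WT and 26.8 CPM for KO glial-like cells, against at most 4.74 CPM in the other 2 classes. *Sema3a*, a repellent of sensory and sympathetic axons, was least abundant in WT glial-like cells. It was at 23.3 CPM for WT and 26.0 CPM for KO mesenchymal-like cells, at 11.9 CPM for WT and 3.53 CPM for KO melanoblast-like cells, and at 0.611 CPM for WT and 4.19 CPM for KO glial-like cells. *Sema3d* differed least, at 17.1 CPM for WT and 28.5 CPM for KO glial-like cells, at 18.8 CPM for WT and 27.3 CPM for KO mesenchymal-like cells, and at 8.69 CPM for WT and 12.9 CPM for KO melanoblast-like cells. *Sema3d*, *Sema3a*, *Sema3e* and *Sema3c* lie in this order on chromosome 5, between positions 12383385 and 17730268, and *Sema3c* and *Sema3a* were most abundant in different classes in both libraries.

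Among the membrane-bound semaphorins, *Sema5a*, a transmembrane semaphorin with thrombospondin repeats, was highest in mesenchymal-like cells, at 73.4 CPM (58.4 to 91.1) for WT and 71.4 CPM (58.7 to 86.0) for KO. Melanoblast-like cells had 21.7 and 30.6 CPM, and glial-like cells 4.88 and 0.837 CPM. *Sema6a*, a ligand of PlexinA2 and PlexinA4, was at 31.6 CPM for WT and 27.1 CPM for KO melanoblast-like cells, at 28.6 CPM for WT and 17.5 CPM for KO mesenchymal-like cells, and at 8.55 CPM for WT and 13.4 CPM for KO glial-like cells. *Sema6d* had the reverse order, with 35.4 and 37.7 CPM in glial-like, 17.9 and 17.5 CPM in mesenchymal-like, and 8.30 and 9.41 CPM in melanoblast-like cells. *Sema4c*, a ligand of PlexinB2, was at 23.8 CPM for WT and 15.1 CPM for KO glial-like cells and between 4.71 and 9.08 CPM in the other 2 classes.

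Plexins, the signalling receptors of semaphorins, divided between the classes. *Plxnc1* (ENSMUSG00000074785, chr10:94790866-94944835, minus strand) was the 1 guidance gene highest in melanoblast-like cells. It had 120 UMIs for WT and 35 for KO, or 47.4 CPM (39.3 to 56.7) and 41.2 CPM (28.7 to 57.3). The levels were 9.84 and 5.84 CPM in mesenchymal-like and 7.33 and 2.51 CPM in glial-like cells. The melanoblast level was 4.82-fold (2.60 to 9.91) the mesenchymal level for WT and 7.05-fold (3.32 to 16.7) for KO. A UMI was seen in 19.1% of the WT and 20.9% of the KO melanoblast-like cells, and in 2.46% and 1.18% of glial-like cells. *Sema7a*, which encodes the known ligand of PlexinC1, had 3 UMIs over all barcodes of both libraries.

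*Plxna2* and *Plxna4*, receptors of class 3 and class 6 semaphorins, were highest in glial-like cells. *Plxna2* was at 48.2 CPM (38.2 to 60.1) for WT and 50.2 CPM (38.3 to 64.6) for KO glial-like cells and at most 5.88 CPM in the other 2 classes. *Plxna4* was at 24.4 CPM for WT and 20.9 CPM for KO glial-like cells, against 9.84 and 5.84 CPM in mesenchymal-like cells. *Plxnb3*, which had under 100 UMIs, was at 20.8 CPM for WT and 23.4 CPM for KO glial-like cells, with at most 2 UMIs in each of the other 2 classes of each library. *Plxna1* lay between 7.90 and 16.2 CPM in the 3 main classes. *Plxnb1* was at 21.4 CPM for WT and 18.4 CPM for KO glial-like cells, at 13.4 CPM for WT and 7.06 CPM for KO melanoblast-like cells, and at 3.58 CPM for WT and 2.60 CPM for KO mesenchymal-like cells. *Plxnb2* was at 25.1 CPM for WT and 37.6 CPM for KO mesenchymal-like cells, at 21.3 CPM for WT and 22.4 CPM for KO melanoblast-like cells, and at 18.3 CPM for WT and 16.7 CPM for KO glial-like cells. *Plxnd1*, best known as an endothelial receptor, was at 24.4 CPM for WT and 12.6 CPM for KO glial-like cells and at most 10.7 CPM in the other 2 classes.

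The neuropilins were shared by glial-like and mesenchymal-like cells. *Nrp1* was at 158 CPM (135 to 183) for WT and 149 CPM (131 to 169.8) for KO mesenchymal-like cells, and at 139 CPM (121 to 158) and 105 CPM (87.9 to 126) in glial-like cells. In WT these neighbours did not differ beyond their intervals. Melanoblast-like cells had 40.7 CPM (33.2 to 49.4) and 72.9 CPM (55.9 to 93.5). *Nrp2* was at 49.5 CPM for WT and 37.7 CPM for KO glial-like cells and at 38.5 CPM for WT and 35.0 CPM for KO mesenchymal-like cells, but melanoblast-like cells had 1 UMI for WT and 2 for KO. Melanoblast-like cells thus carried *Nrp1* and *Plxnc1* transcripts with almost no *Nrp2*.

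In the Slit and Robo system, receptor and ligand transcripts met in mesenchymal-like cells. *Robo2* (ENSMUSG00000052516, chr16:73891839-74411825, minus strand) was at 72.5 CPM (57.6 to 90.1) for WT and 53.9 CPM (42.9 to 66.8) for KO mesenchymal-like cells. This was 14.8-fold (7.18 to 35.5) the glial level for WT and 9.19-fold (4.27 to 23.6) for KO, and melanoblast-like cells had 2 UMIs and 1. *Robo1* followed with 20.6 and 21.4 CPM in mesenchymal-like cells and 0 UMIs for WT and 2 for KO glial-like cells. Its mesenchymal level was 5.79-fold (2.58 to 14.2) the melanoblast level for WT and 2.60-fold (1.13 to 6.96) for KO. *Slit2* was at 15.2 CPM for WT and 18.8 CPM for KO mesenchymal-like cells and at most 7.53 CPM in the other 2 classes. *Slit3* was in both glial-like cells, at 37.2 and 29.3 CPM, and mesenchymal-like cells, at 37.6 and 28.5 CPM. Melanoblast-like cells had 1 UMI of *Slit3* for WT and 4 for KO. *Robo1* and *Slit2* had under 100 UMIs each.

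Within glial-like cells some guidance genes differed between clusters, although the guidance genes had no part in the clustering. The 5 clusters were led by *Pcdh20* and *Gap43* (185 WT and 94 KO cells), by *1500015O10Rik* and *Sostdc1* (110 and 59), by *Pou3f1* and *Cpm* (44 and 60), by *Cdc25c* and *Fabp7* (63 and 27), and by *Gm29865*, *Grb14* and *Dkk2* (46 and 14). The *Sostdc1* cluster held most of the *Epha5* signal, at 421 CPM (364 to 484) for WT and 305 CPM (246 to 373) for KO. In the *Pcdh20* cluster *Epha5* had 1 UMI in each library.

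*Nrp2* followed *Epha5*. It was at 149 and 110.2 CPM in the *Sostdc1* cluster and at 6.71 and 5.57 CPM in the *Pcdh20* cluster. *Sema3b* was at 164 and 172 CPM in the *Sostdc1* cluster, against 57.0 and 19.5 CPM in the *Pcdh20* cluster. *Sema6d* was at 58.3 and 90.8 CPM against 26.8 and 11.1 CPM in the same pair of clusters. These genes were higher in the *Sostdc1* cluster in both libraries.

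*Efna5*, a ligand of EphA5, had the opposite order. It was at 247 CPM (208 to 289.8) for WT and 187 CPM (145 to 237) for KO cells of the *Pcdh20* cluster, and at 23.7 CPM (11.9 to 42.5) and 45.4 CPM (24.8 to 76.1) in the *Sostdc1* cluster. In the *Cdc25c* and *Fabp7* cluster, *Efna5* was at 207 and 238 CPM, and *Epha5* had 1 UMI for WT and 0 for KO. The transcripts of this ligand and of this receptor were thus most abundant in different clusters in both libraries. *Plxna2* was arranged like *Efna5*, at 98.97 and 111 CPM in the *Pcdh20* cluster and 2.16 and 9.72 CPM in the *Sostdc1* cluster.

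*Sema3c* was found in all 5 glial-like clusters. The highest level was in the *Gm29865*, *Grb14* and *Dkk2* cluster, at 449.8 CPM (349 to 571) for WT and 238 CPM (127 to 407) for KO. The lowest was in the *Pou3f1* and *Cpm* cluster, at 73.3 and 67.2 CPM. *Nrp1* was also highest in the *Gm29865* cluster, at 255 and 329 CPM, and lowest in the *Pou3f1* cluster, at 67.2 and 41.6 CPM. For *Nrp1* and *Sema3g* the order of the *Sostdc1* and *Pcdh20* clusters differed between the libraries. *Nrp1* was at 138 and 110.2 CPM in the *Sostdc1* cluster, against 129 and 136 CPM in the *Pcdh20* cluster. *Sema3g* was at 49.6 and 35.7 CPM, against 35.2 and 39.0 CPM. The genes described by cluster here and in the mesenchymal-like cells were chosen after their values were seen.

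**Figure D2:**
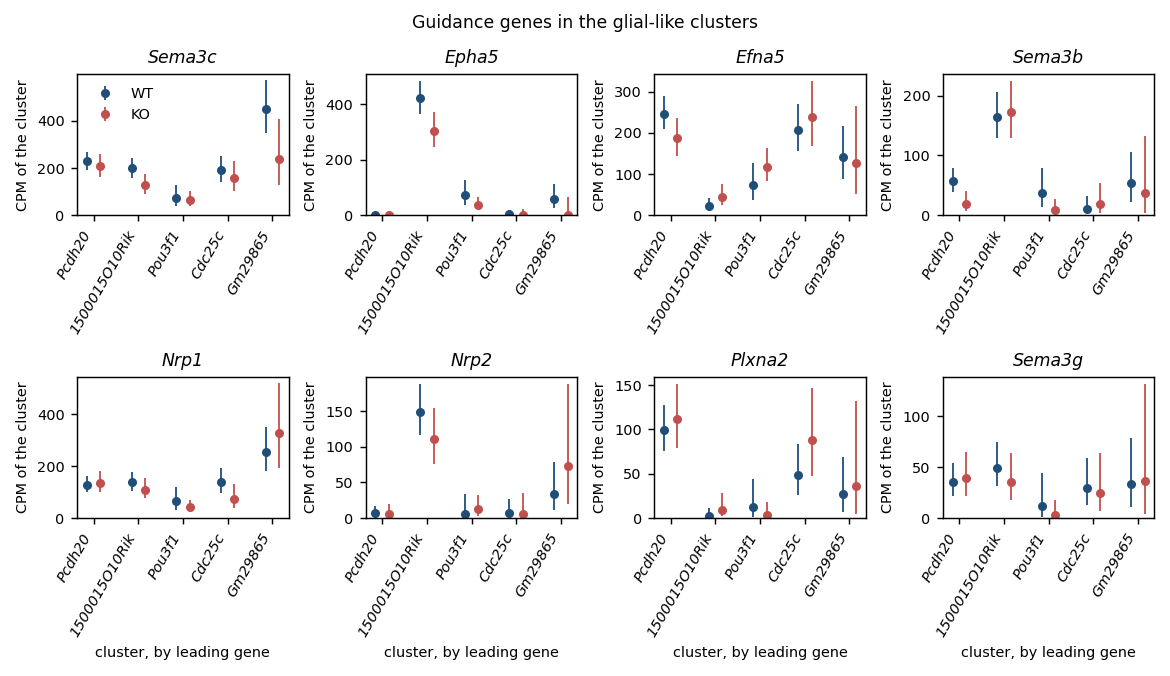
Levels of 8 guidance genes in the 5 glial-like clusters, in CPM of the cluster, with WT in blue, KO in red and bars for 95% Poisson intervals. Each cluster is named on the horizontal axis by its leading gene, *Epha5* and *Nrp2* peak in the *1500015O10Rik* cluster and *Efna5* and *Plxna2* are low there.

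The mesenchymal-like cells formed a cluster led by *Crabp1* and *Twist2* (184 WT and 116 KO cells), genes of dermal fibroblasts, and a cluster led by *Mfap5* and *Clec3b* (45 and 152). Most WT cells lay in the first and most KO cells in the second. *Sema3c* was nearly confined to the *Mfap5* cluster in both libraries, at 367 CPM (285 to 464) for WT and 195 CPM (167 to 227) for KO, against 6.46 CPM (2.37 to 14.1) and 8.95 CPM (3.29 to 19.5) in the *Crabp1* cluster. *Epha4* and *Epha3* followed the same order. *Epha4* was at 26.6 and 52.8 CPM in the *Mfap5* cluster and 7.53 and 8.95 CPM in the *Crabp1* cluster. *Epha3* was at 47.8 and 55.1 CPM, against 15.1 and 10.4 CPM. Its WT intervals, 21.9 to 90.8 and 8.24 to 25.3 CPM, also overlapped.

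*Robo2* and its ligand gene *Slit3* had the reverse order. *Robo2* was at 86.1 CPM (68.3 to 107) for WT and 109 CPM (85.4 to 137) for KO cells of the *Crabp1* cluster, and 1 WT and 10 KO UMIs were counted in the *Mfap5* cluster. *Slit3* was at 42.0 CPM (29.8 to 57.4) for WT and 47.7 CPM (32.7 to 67.4) for KO in the *Crabp1* cluster. In the *Mfap5* cluster *Slit3* was at 15.9 CPM (3.29 to 46.6), from 3 UMIs, and 13.8 CPM (7.12 to 24.1). The WT intervals of *Slit3* overlapped between the clusters. *Efna5* was also higher in the *Crabp1* cluster, at 96.9 and 94.0 CPM against 47.8 and 33.3 CPM. *Nrp1* was alike in both, between 128 and 164 CPM.

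**Figure D3:**
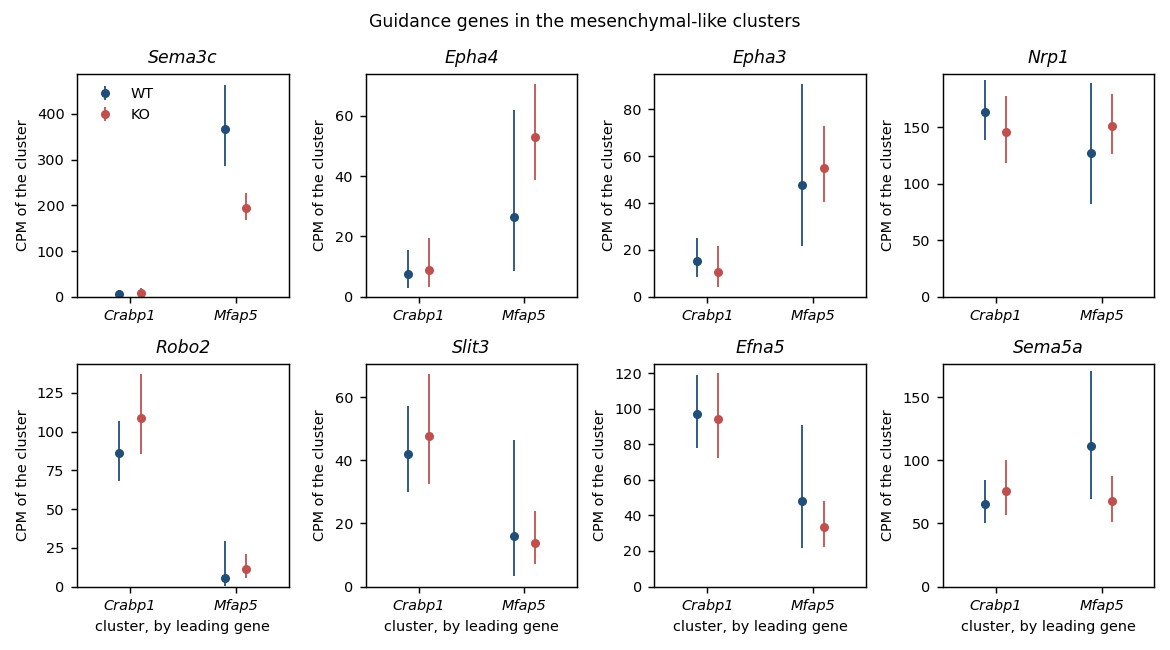
Levels of 8 guidance genes in the 2 mesenchymal-like clusters, in CPM of the cluster, with WT in blue, KO in red and bars for 95% Poisson intervals. *Sema3c*, *Epha4* and *Epha3* are higher in the *Mfap5* cluster, *Robo2*, *Slit3* and *Efna5* are higher in the *Crabp1* cluster, and *Nrp1* is alike in both.

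The melanoblast-like clusters were led by *Mt2* and *Ptgds* (254 WT and 90 KO cells), by *Pbk*, *Nusap1* and *Top2a* (153 and 35), by *Pmel* and *Slc24a5* (97 and 5), and by *Dct*, *Mlana* and *Pmel* (30 and 9). *Plxnc1* was present in all 4, between 32.9 and 115 CPM, the higher value from 3 UMIs in 5 cells. *Nrp1* in WT was highest in the *Pmel* and *Slc24a5* cluster, at 85.6 CPM (59.7 to 119), above 33.2 CPM (22.9 to 46.6) in the *Mt2* cluster and 27.2 CPM (17.9 to 39.6) in the *Pbk* cluster. In KO it was at 61.6 CPM (41.6 to 88.0) in the *Mt2* cluster and 85.2 CPM (55.1 to 126) in the *Pbk* cluster, whose genes *Nusap1* and *Top2a* act in dividing cells.

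Guidance genes were also read in the smaller classes. In endothelial-like cells *Plxnd1*, the receptor of *Sema3e*, was at 219.5 CPM (130.1 to 347) for WT and 333 CPM (194 to 533) for KO. *Nrp1* was at 256 CPM (159 to 391) and 78.3 CPM (21.3 to 200.4) there, and *Nrp2* at 61.0 CPM (19.8 to 142) and 391 CPM (239 to 604). NRP2 marks lymphatic and venous endothelium, and these values rest on 21 WT and 8 KO cells. Macrophage-like cells had *Nrp1* at 262 CPM (223 to 307) and 297 CPM (221 to 391), with a UMI in 74.0% and 78.9% of cells. *Plxnb2* was at 77.9 and 70.0 CPM and *Plxnd1* at 76.2 and 87.5 CPM in these cells. In KO keratinocyte-like cells, *Efna3* was at 59.2 CPM (43.2 to 79.2), *Efna1* at 40.8 CPM (27.7 to 57.9), *Efna4* at 35.5 CPM (23.4 to 51.7) and *Epha1* at 27.6 CPM (17.1 to 42.2). The 12 WT keratinocyte-like cells held 4, 5, 1 and 1 UMIs of these genes. Mast-cell-like cells of WT shared *Plxnc1* with melanoblast-like cells, at 40.4 CPM (20.9 to 70.5). Erythroid-like cells had 0 guidance UMIs for WT and 8 for KO.

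The genotypes were then compared within each class, as the log2 ratio of KO to WT for genes that had 30 or more UMIs there. In melanoblast-like cells 13 guidance genes had enough UMIs, and 0 were higher in KO by at least 2-fold (2.6% of all 6949 genes tested were) while 3 were lower (3.01% of all genes). In glial-like cells 23 were tested, with 0 higher (2.65% of 7345 genes) and 0 lower (1.72%). In mesenchymal-like cells 23 were tested, with 1 higher (4.74% of 6957 genes) and 0 lower (2.21%). The remaining 45, 35 and 35 guidance genes had too few UMIs in the class. The limit of 30 UMIs was on WT and KO together, and WT melanoblast-like cells held 2530577 UMIs against 850088 for KO. The median log2 ratio of the tested guidance genes was 0.07 in melanoblast-like, −0.35 in glial-like and 0.06 in mesenchymal-like cells, against −0.01, −0.02 and −0.01 over all genes. Under the other settings run, these medians ranged from −0.07 to 0.47, from −0.49 to −0.13 and from −0.27 to 0.20, so the sign of the melanoblast-like and mesenchymal-like medians depended on the setting. In glial-like cells 6 of the 23 lay above 0 and 17 below, and 47.8% of all genes lay above 0.

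The guidance genes lower in KO melanoblast-like cells were ligands with few UMIs. *Efna2* (ENSMUSG00000003070, chr10:80179482-80190010, plus strand) had 35 UMIs for WT and 2 for KO, a KO:WT log2 of −2.56 (95% interval −5.66 to −0.59). *Sema3a* had 30 and 3 UMIs, or −1.75 (95% interval −4.10 to −0.06), and *Sema3b* had 28 and 4, or −1.23 (95% interval −3.21 to 0.28). The interval of *Sema3b* included 0. *Efna2* and *Sema3a* met the limit of 30 UMIs by their WT UMIs alone. The share of all genes given above was over genes of any count from 30 UMIs up, not over genes with such low counts. After thinning to 2000 UMIs per cell the log2 ratios were −1.89 for *Efna2*, −2.09 for *Sema3a* and −1.89 for *Sema3b*, and 0 genes met the limits. Over the settings run they ranged from −3.06 to −1.89 for *Efna2*, from −2.41 to −1.09 for *Sema3a* and from −2.31 to −0.56 for *Sema3b*. The melanoblast-like clusters were unequally filled, with 97 WT and 5 KO cells in the *Pmel* and *Slc24a5* cluster, and the part of this in the ratios was not tested.

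With more UMIs in melanoblast-like cells, *Nrp1* was at 40.7 CPM for WT and 72.9 CPM for KO, a KO:WT log2 of 0.84 (95% interval 0.36 to 1.31), under the 2-fold limit. The share of cells with a UMI of *Nrp1* was 14.8% and 28.1%, and 8.59% and 15.8% after thinning. By cluster, its log2 ratio was 0.89 (0.13 to 1.65) in the *Mt2* cluster, 1.65 (0.80 to 2.49) in the *Pbk* cluster and −0.16 (−3.26 to 1.80) in the *Pmel* cluster, which had 2 KO UMIs, and the *Dct* cluster held 8 WT and 5 KO UMIs. These clusters were singled out after the values were seen. *Efna5* had a KO:WT log2 of 0.64 (95% interval 0.00 to 1.25), with 0.83 (−0.11 to 1.76) in the *Mt2* cluster and 0.48 (−0.53 to 1.41) in the *Pbk* cluster. *Plxnc1* and *Sema6a* were nearest to 0 among the genes that had 100 or more UMIs there, at −0.20 (95% interval −0.79 to 0.35) and −0.22 (95% interval −0.96 to 0.46).

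Markers of other cell types also differed between the melanoblast-like cells of the libraries. The 10 mesenchymal markers, all with a UMI in both libraries and led by *Col1a2*, summed to 151 CPM for WT and 633 CPM for KO, against 20707 and 22784 CPM in mesenchymal-like cells. The 9 keratinocyte markers, led by *Krt10* and with *Trp63* at 0, summed to 68.0 and 446 CPM. The 8 erythroid markers, led by *Hbb-bs* and with *Hbb-y* at 0 in all, had 4 with a UMI in each WT class and 6, 7 and 7 in the KO classes. They summed to 78.6 and 1119.9 CPM in melanoblast-like, 87.3 and 1131 CPM in glial-like, and 81.4 and 1207 CPM in mesenchymal-like cells. The part of free RNA in the ratios of *Nrp1*, *Efna5* and the other guidance genes was not tested.

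In glial-like cells the ratios of *Sema3c*, *Efna5*, *Nrp1* and *Epha5*, which had the narrowest intervals, were below 0. *Efna5* was at −0.14 (95% interval −0.43 to 0.15), with −0.40 (−0.84 to 0.02) in the *Pcdh20* cluster, 0.69 (−0.28 to 1.77) in the *Pou3f1* cluster and 0.20 (−0.43 to 0.82) in the *Cdc25c* cluster. *Sema3c* had a KO:WT log2 of −0.59 (95% interval −0.86 to −0.32), and *Epha5* of −0.57 (95% interval −0.92 to −0.23). For *Sema3c* the ratio by cluster was −0.13 (−0.55 to 0.29) in the *Pcdh20* cluster, −0.61 (−1.19 to −0.06) in the *Sostdc1* cluster and −0.92 (−1.90 to −0.05) in the *Gm29865* cluster. It was −0.13 (−1.22 to 1.03) in the *Pou3f1* cluster and −0.29 (−1.05 to 0.42) in the *Cdc25c* cluster. The glial-like clusters were unequally filled, and the *Pou3f1* cluster, where *Sema3c* was lowest, held 44 of 448 WT but 60 of 254 KO cells. The ratio of *Epha5* was −0.47 (−0.84 to −0.10) in the *Sostdc1* cluster, which held most of its UMIs. *Nrp1* was at −0.39 (95% interval −0.72 to −0.07) in the class, but its clusters lay on both sides of 0. It was at 0.08 (−0.47 to 0.61) in the *Pcdh20* cluster, −0.33 (−0.97 to 0.30) in the *Sostdc1* cluster, 0.37 (−0.53 to 1.21) in the *Gm29865* cluster and −0.89 (−1.96 to 0.08) in the *Cdc25c* cluster, with every interval across 0. *Sema3b* was at −0.45 (95% interval −0.89 to −0.01) in the class, with −1.55 (−2.97 to −0.35) in the *Pcdh20* cluster and 0.07 (−0.47 to 0.59) in the *Sostdc1* cluster. *Sema3d* was at 0.74 (95% interval −0.03 to 1.51) in the class and 1.01 (−0.10 to 2.14) in the *Pcdh20* cluster. *Plxnd1* was at −0.96 (95% interval −1.92 to −0.07), close to the 2-fold limit. Nearest to 0 among the genes that had 100 or more UMIs there were *Plxna2* and *Sema6d*, at 0.06 (95% interval −0.45 to 0.56) and 0.09 (95% interval −0.51 to 0.68).

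In mesenchymal-like cells *Epha4* (ENSMUSG00000026235, chr1:77367185-77515088, minus strand) was higher in KO, with 12 UMIs for WT and 52 for KO, or 10.7 and 33.7 CPM, a KO:WT log2 of 1.65 (95% interval 0.73 to 2.69). Its share of cells with a UMI was 4.80% and 15.7%. The mesenchymal-like clusters were unequally filled, and 152 of 268 KO cells but 45 of 229 WT cells lay in the *Mfap5* cluster. *Epha4* was higher there in both libraries, with overlapping intervals in WT. Within that cluster the log2 ratio was 0.99 (−0.33 to 2.68), and in the *Crabp1* cluster 7 WT and 6 KO UMIs were counted. Keratinocyte markers summed to 51.9 CPM for WT and 444 CPM for KO mesenchymal-like cells, and *Epha4* was at 25.0 CPM in KO keratinocyte-like cells. The part of free RNA and of the unequal clusters in the ratio of *Epha4* was not tested.

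The ratio of *Sema3c* differed in sign between this class and its *Mfap5* cluster. Over all mesenchymal-like cells it was at 67.1 CPM for WT and 114 CPM for KO, a KO:WT log2 of 0.77 (95% interval 0.37 to 1.18). Within the *Mfap5* cluster, which held 69 of the 75 WT and 170 of the 176 KO UMIs, it was at 367 and 195 CPM, a KO:WT log2 of −0.91 (−1.32 to −0.48). The part of the unequal clusters in the class ratio was not tested. *Epha3* had a class ratio of 0.79 (95% interval 0.07 to 1.56) and a ratio of 0.20 (−0.84 to 1.42) within the *Mfap5* cluster. *Efna5* had a class ratio of −0.57, with an interval below 0, and −0.04 (−0.53 to 0.44) in the *Crabp1* and −0.52 (−1.64 to 0.74) in the *Mfap5* cluster. *Sema6a* was at −0.71 in the class, with an interval across 0. In the *Crabp1* cluster it had 31 WT and 8 KO UMIs, a ratio of −1.48 (−2.82 to −0.33), past 2-fold. The *Mfap5* cluster went the other way, with 1 WT and 19 KO UMIs of *Sema6a*, or 5.31 and 21.8 CPM. Among the genes with 100 or more UMIs in these cells, *Sema5a* and *Nrp1* were nearest to 0, at −0.04 (95% interval −0.47 to 0.39) and −0.08 (95% interval −0.37 to 0.21). Their clusters had opposite signs, with intervals across 0. *Sema5a* was at 0.21 (−0.35 to 0.77) in the *Crabp1* and −0.72 (−1.46 to 0.07) in the *Mfap5* cluster. *Nrp1* was at −0.16 (−0.54 to 0.21) and 0.25 (−0.39 to 0.94).

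**Figure D4:**
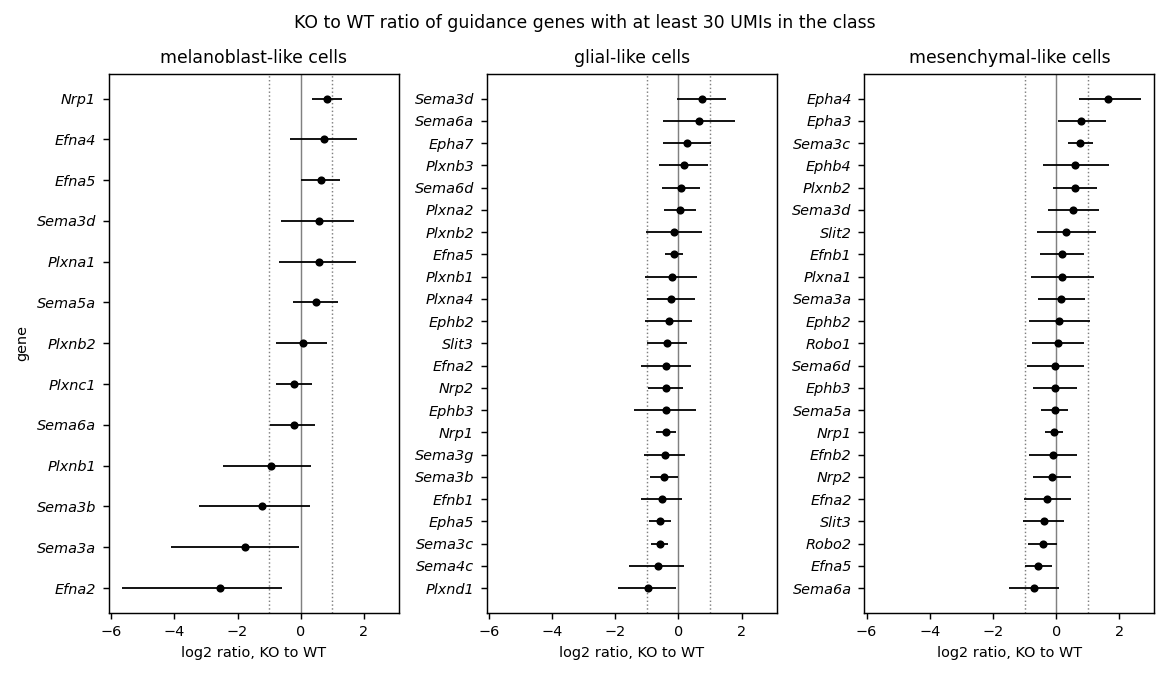
Log2 ratio of KO to WT for the guidance genes that had 30 or more UMIs per class, a panel per class, with bars for exact 95% intervals of counting error and dotted lines at 2-fold. The points past the dotted lines are *Efna2*, *Sema3a* and *Sema3b* in melanoblast-like cells and *Epha4* in mesenchymal-like cells, and most others have intervals that cross 0.

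Other genes of axon guidance were set beside them in 6 lists with 84 genes, of which 83 were in the tables. The lists held netrins, their receptors and RGM proteins (16 genes), other Robo and Flrt receptors (7), effectors of plexins and semaphorins (19), of Ephs and ephrins (17) and of Slit and Robo (13), and neural adhesion co-receptors (12). In melanoblast-like cells 41 were tested, with 2 higher in KO (2.6% of all genes were), 1 lower (3.01%) and a median KO:WT log2 of −0.05. The higher were *Crmp1* and *Arhgef12*, effectors of the plexin list. *Crmp1*, a collapsin response mediator, was at 10.3 CPM for WT and 21.2 CPM for KO cells, a KO:WT log2 of 1.04 (0.09 to 1.97). *Arhgef12*, an effector that binds plexins, was at 11.9 CPM for WT and 24.7 CPM for KO cells, a KO:WT log2 of 1.06 (0.18 to 1.91). The lower was *Cspg4* of the adhesion list, with 32 UMIs for WT and 0 for KO, where 3 counts would be 3.53 CPM, and *Pard6a* came next, at 9.88 CPM for WT and 5.88 CPM for KO cells, a KO:WT log2 of −0.75 (−2.49 to 0.66).

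In glial-like cells 41 list genes were tested, with 2 higher (2.65% of all genes were), 0 lower (1.72%) and a median of −0.03. *Ntng1*, a lipid-anchored netrin relative of the netrin list, was at 22.0 CPM for WT and 77.0 CPM for KO cells, a KO:WT log2 of 1.81 (1.24 to 2.41). *Enah*, an actin regulator downstream of Robo, was at 20.8 CPM for WT and 46.0 CPM for KO cells, a KO:WT log2 of 1.15 (0.51 to 1.81). At the other end, *Cdk5* was at 44.0 CPM for WT and 27.6 CPM for KO cells, a KO:WT log2 of −0.67 (−1.31 to −0.06), and *Nck2* at 15.3 CPM for WT and 10.0 CPM for KO cells, a KO:WT log2 of −0.60 (−1.73 to 0.44). Of the 46 list genes with enough UMIs to compare classes, 8 were highest in glial-like cells (4.69% of all genes were), namely *Ntng1*, *Flrt3*, *Adam10*, *Srgap1*, *Gpc1*, *L1cam*, *Sdc3* and *Chl1*. *Ntn1* and *Enah* were highest in mesenchymal-like cells (4.68%) and *Mical1* in melanoblast-like cells (1.64%).

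In mesenchymal-like cells 37 list genes were tested, with 6 higher (4.74% of all genes were), 0 lower (2.21%) and a median of 0.24. They were *Ntng1* and *Neo1* of the netrin list, *Flrt2* of the Robo and Flrt list, *Dpysl3* of the plexin list, *Enah* of the Slit list and *Gpc1* of the adhesion list. *Ntng1* was at 5.37 CPM for WT and 18.2 CPM for KO cells, a KO:WT log2 of 1.76 (0.46 to 3.32). *Flrt2*, a ligand of Unc5 receptors, was at 9.84 CPM for WT and 28.5 CPM for KO cells, a KO:WT log2 of 1.54 (0.56 to 2.64). The lowest were *Flrt3* at 21.5 CPM for WT and 15.6 CPM for KO cells, a KO:WT log2 of −0.46 (−1.34 to 0.41), and *Sdc3* at 17.9 CPM for WT and 13.0 CPM for KO cells, a KO:WT log2 of −0.46 (−1.43 to 0.51). *Ntng1* was higher in KO in both glial-like and mesenchymal-like cells, and the part of cluster makeup was not tested.

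With 1 female WT and 1 male KO library, the differences in *Nrp1*, *Sema3c*, *Epha4* and the other guidance genes cannot be assigned to genotype, sex, embryo or library. Transcript counts in sorted cells show neither the protein levels of these ligands and receptors nor their contacts in the skin.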

How the data were processed

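The authors used Cell Ranger 2.2.0 on mm10 with the tdTomato and Cre sequences added to obtain UMI counts of genes in single cells, and these counts were deposited unnormalized. Cells with at least 100 genes, at most 40000 UMIs and at most 10% mitochondrial UMIs were kept, which removed 6 WT and 18 KO barcodes. Scrublet called 9 WT and 6 KO doublets, which were kept. Of 2000 variable genes, 1985 were used, with 30 principal components, 15 neighbours and Leiden resolution 1. The guidance genes, *Hira*, *Xist*, *Eif2s3y*, *Ddx3y*, *Kdm5d* and *Uty* were left out, and other sex-linked genes were not. Clusters were named by the marker list with the largest share of raised markers, at least 3. A raised marker was in at least 10% of the cluster's cells, with a log2 of at least 1 over the other cells after 10 CPM were added. For each class and library, the UMIs of its cells were added up and scaled to CPM. Intervals were exact Poisson for levels, Clopper-Pearson for shares and conditional binomial for ratios, to which nothing was added. A count of 0 was limited at 3 counts.

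Genes with at least 100 UMIs over both libraries were described by level in the 3 main classes. Ratios were described for genes at least 2-fold apart with at least 30 UMIs, and for the 2 nearest to log2 0 with at least 100. For the comparison lists, the 2 highest and 2 lowest ratios per class were described, and *Hira*, *Xist*, *Eif2s3y* and markers of other classes were added. Genes described by cluster, and other ratios given, were singled out after their values were seen. The members and lists were chosen with earlier results of these data known. Coordinates were from GENCODE M21 on GRCm38. Alternatives varied the gene filter, resolution, separate clustering, use of the guidance genes, doublets, means over cells, UMI limits, thinning and the cluster used. Clustering ran in scanpy 1.11.5 with igraph 0.11.9, anndata 0.12.19 and scikit-learn 1.9.0, intervals in scipy 1.17.1, tables in pandas 2.3.3 and numpy 2.4.6, and plots in matplotlib 3.10.9, under Python 3.11.15.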

Additional observations from a re-analysis of the deposited data

Results flagged for a closer look

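For 3 guidance genes, the 95% intervals of the KO to WT ratio, of counting error only, lay on opposite sides of 0 in 2 cell classes, and the difference between classes was not tested. *Efna5* had a log2 ratio of 0.64 in melanoblast-like cells and −0.57 in mesenchymal-like cells, with −0.04 in the *Crabp1* cluster and −0.52 in the *Mfap5* cluster, both with intervals across 0. In the *Mt2* and *Pbk* clusters of melanoblast-like cells *Efna5* was at 0.83 and 0.48, also with intervals across 0. *Nrp1* was at 0.84 in melanoblast-like cells and −0.39 in glial-like cells, but the glial-like clusters had both signs, with 0.08 in the *Pcdh20* cluster and 0.37 in the *Gm29865* cluster, against −0.33 in the *Sostdc1* cluster and −0.89 in the *Cdc25c* cluster. *Sema3c* was at 0.77 in mesenchymal-like cells and −0.59 in glial-like cells. In the *Mfap5* cluster, which held 69 of 75 WT and 170 of 176 KO UMIs of *Sema3c* in mesenchymal-like cells, it was at −0.91, the same sign as in glial-like cells. The clusters were unequally filled, with 45 WT and 152 KO cells in the *Mfap5* cluster and 184 and 116 in the *Crabp1* cluster, and the part of this in the class ratio was not tested. Each value rests on 1 WT and 1 KO library.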

How the results depend on the processing

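No paired analysis was possible because there was 1 library per genotype. Of 93 counts of guidance genes under other settings, 67 stayed within 1.5 times the reported count and 26 moved. The counts below come without the share of all genes at the same setting, so they show only how each count moved. Of 90 ratios of named genes 84 stayed within their intervals, and of 420 levels 415 did. All settings drew on the same 2 libraries and many intervals were wide, so these counts cannot show whether a ratio would recur in other embryos. Of 33 median log2 ratios, 19 differed by at most 0.1 from the reported median. With at least 500 genes per cell, 2 genes were higher in KO melanoblast-like cells and 3 were highest in mesenchymal-like cells. *Robo1* and *Sema5a* were no longer highest in mesenchymal-like cells. The classes also differed in this setting, with 66 KO melanoblast-like cells instead of 139 and 113 cells left unnamed. With each library clustered alone, 1 was higher and 0 were lower in KO melanoblast-like cells. In KO mesenchymal-like cells 2 were higher and 1 lower in this setting. It left 304 cells unnamed, and *Robo1* was no longer highest in mesenchymal-like cells. With a limit of at least 10 UMIs, 3 were higher in KO melanoblast-like cells, 1 was lower in KO glial-like cells, and 3 were higher and 1 lower in KO mesenchymal-like cells, while 8 were highest in mesenchymal-like cells. With a limit of at least 100 UMIs, 0 were lower in KO melanoblast-like cells, 0 were higher in KO mesenchymal-like cells, 0 were highest in melanoblast-like cells, 1 in glial-like cells and 1 in mesenchymal-like cells. Thinned to 2000 UMIs, 0 were lower in KO melanoblast-like cells, 1 was higher in KO glial-like cells and 0 were higher in KO mesenchymal-like cells. The thinned ratios of *Efna2*, *Sema3a* and *Sema3b* in melanoblast-like cells were still past 2-fold, and these genes fell under the UMI limit. In the largest shared cluster of each class, 0 were lower in KO melanoblast-like cells, 1 was higher and 1 lower in KO glial-like cells, and 0 were higher and 1 lower in KO mesenchymal-like cells. Only 6 melanoblast-like, 9 glial-like and 15 mesenchymal-like guidance genes had enough UMIs in that setting. With Scrublet calls left out, 1 was lower in KO glial-like cells, and with means over cells also 1. The log2 ratio of *Epha4* in mesenchymal-like cells ranged from 0.25 to 2.31 over the settings run, and that of *Nrp1* in glial-like cells from −0.48 to 0.08. The ratios in single clusters were added after the data were seen and were not counted among the 90. In the *Mfap5* cluster *Sema3c* was at −0.91 against 0.77 in its class. The cause was not tested.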
